A study of Homo sapiens with 4 samples.

Results

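The Notch pathway genes NOTCH1, NOTCH2, NOTCH3, JAG1, JAG2, RBPJ, HES1, HES4, NRARP and HES6 were examined in RNA-seq libraries of VCaP cells, 10 of the 60308 gene identifiers counted. They were chosen by their place in the pathway and with their folds between the siZBTB7A and siNTC tables already known, so every difference between the groups given for them is a description and carries no test. VCaP is an established human prostate cancer cell line that carries the TMPRSS2-ERG fusion. In the control group (siNTC) the cells received a non-targeting siRNA, and in the other group (siZBTB7A) an siRNA against ZBTB7A, a zinc finger protein known mainly as a transcriptional repressor. Both groups were grown in DMEM with fetal bovine serum, and no further treatment, genotype or time after transfection is given in the labels. Each group had 2 count tables, numbered 1 and 2, from stranded total RNA libraries, to ask which genes depend on ZBTB7A.

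Notch receptors are membrane proteins that are activated by ligands of the Jagged and Delta families on a neighbouring cell. Ligand binding leads to cleavage by an ADAM protease and then by gamma-secretase, and the freed intracellular domain enters the nucleus, where it joins the DNA-binding protein RBPJ and a Mastermind coactivator. Without it RBPJ recruits corepressors. Well-known direct targets are HES1, HES4 and HEY genes, which encode bHLH repressors, and NRARP, whose protein binds the Notch intracellular domain with RBPJ and limits its activity. HES6 is a relative that can oppose HES1. In prostate epithelium the pathway is known for its part in basal and luminal cell differentiation.

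The letters before the start sites of HES1, HES4 and NRARP are shown because these are the direct targets among the 10 genes with the higher counts in the siZBTB7A tables described further on. The windows are the 250 bases before the annotated start, 5′ to 3′ on the strand of the gene, from RefSeq on build GRCh38.p14. All 10 genes had a window there, and RBPJ had 5. In HES1 (chr3:194135898-194136147, plus strand) and HES4 (chr1:1000098-1000347, minus strand), capitals mark matches on either strand to TGGGAA, the core of the RBPJ motif, to its longer form GTGGGAA, and to the variant GTGTGAA. In NRARP (chr9:137302272-137302521, minus strand) capitals mark matches on either strand to GGGTC, a short stretch found in motifs described for ZBTB7A.
HES1: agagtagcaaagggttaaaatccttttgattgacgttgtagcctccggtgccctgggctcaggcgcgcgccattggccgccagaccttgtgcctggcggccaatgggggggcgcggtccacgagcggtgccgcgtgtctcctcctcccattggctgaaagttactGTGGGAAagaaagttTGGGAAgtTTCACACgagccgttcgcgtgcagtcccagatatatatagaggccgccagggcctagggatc
HES4: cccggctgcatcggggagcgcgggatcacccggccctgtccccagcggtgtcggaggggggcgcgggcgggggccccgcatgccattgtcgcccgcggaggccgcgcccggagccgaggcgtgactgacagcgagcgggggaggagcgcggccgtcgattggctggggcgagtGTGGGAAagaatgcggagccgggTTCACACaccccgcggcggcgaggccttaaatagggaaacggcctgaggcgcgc
NRARP: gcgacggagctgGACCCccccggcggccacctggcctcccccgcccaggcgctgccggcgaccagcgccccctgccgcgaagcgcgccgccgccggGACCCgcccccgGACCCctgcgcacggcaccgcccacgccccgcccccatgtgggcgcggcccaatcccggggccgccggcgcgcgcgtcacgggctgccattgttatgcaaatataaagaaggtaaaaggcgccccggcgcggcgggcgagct

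HES1 and HES4 shared an arrangement of these motifs. Each held GTGGGAA and, on the opposite strand, GTGTGAA, with 16 bases between them. Among all 35116 RefSeq windows of the same length, 11 (0.031%) held both motifs on opposite strands at most 30 bases apart, and no other gene of the pathway list described below was among them. HES1 had a further TGGGAA between the pair. Singly the motifs were common, since GTGGGAA was found in 5.43% of all windows, TGGGAA, which it contains, in 20.8% and GTGTGAA in 2.48%. The arrangement was noticed in these windows and then counted. Among the other 8 genes, only a window of RBPJ held GTGGGAA, with 2 matches. GGGTC was found in the windows of 5 of the 10 genes (NOTCH1, NOTCH3, JAG2, NRARP and HES6), beside 42.1% of all windows, and NRARP had 3 matches. A match describes letters and not binding.

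The libraries set the limits of every value that follows. The 2 tables of a group differed by no more than read sampling (chi-square per degree of freedom 0.993 over 12762 genes, p = 0.722, for siNTC and 0.995 over 12645 genes, p = 0.659, for siZBTB7A), against 3.50 to 3.64 between tables of different groups. They were therefore counted as 1 sample, and the groups are compared through 1 library each with no replicate check. The tables held 5556061 to 5927656 gene reads each. ZBTB7A itself was counted with 90 and 115 reads under siNTC and with 70 and 74 under siZBTB7A, a fold of 0.743 with an exact (Clopper-Pearson) 95% counting interval of 0.597 to 0.924. It was not called in the edgeR fit described below. Mitochondrial genes took 17.1% of gene reads in both siNTC tables and 20.2% in both siZBTB7A tables, and reads at no annotated exon took 20.6% and 23.1 to 23.2% of all reads. Markers of luminal prostate cells all had reads and summed to 9671 and 9835 CPM (counts per 1000000 TMM-adjusted gene reads) in siNTC and 9173 and 9223 in siZBTB7A. Of 6 leukocyte markers 3 had reads, summing to 1.56 to 1.67 CPM in siNTC and 1.95 to 2.38 in siZBTB7A. Most of these reads were from CD14 (8 and 9 in siNTC, 12 and 11 in siZBTB7A), and CD3E and LYZ were among those at 0. Of 4 endothelial markers found 3 had reads, at 0.334 to 1.21 and 0.732 to 0.885 CPM. VWF had 2 and 2 reads in siNTC and 4 and 5 in siZBTB7A, and CDH5 had 0. Of 6 fibroblast markers 5 had reads, at 15.9 to 18.7 and 13.5 to 15.4 CPM, most of them from LUM, with COL1A2 at 0. In a bulk sample, fewer cells of a kind and less RNA per cell cannot be told apart. Intervals below are exact 95% counting intervals and cover counting error only.

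The receptors were dominated by NOTCH2. On the scale of reads per kilobase of the longest annotated transcript scaled as CPM (RPKM), NOTCH2 lay between 16.0 and 18.3 in the 4 tables. NOTCH3 lay between 1.79 and 2.63, and NOTCH1 between 0.334 and 0.539. The 3 ranges did not overlap. The order NOTCH2, NOTCH3, NOTCH1 was also found with the median transcript length and with the union of exons as the length. The fourth receptor gene, NOTCH4, had 21 reads in all and was under the filter on low counts. NOTCH2 has near-identical partial copies in the genome, whose shared reads are left out of tables of this layout, so its count is uncertain.

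NOTCH3 (ENSG00000074181) had the fold farthest from 1 among the 3 receptor genes that passed the filter. It had 90 and 109 reads under siNTC and 121 and 129 under siZBTB7A, or 15.6 and 18.2 CPM against 22.1 and 22.8 CPM. Both siZBTB7A tables lay above both siNTC tables, and the fold of the summed tables was 1.33 (1.1 to 1.61). NOTCH2 (ENSG00000134250) lay on the other side, with 1207 and 1179 reads in siNTC and 995 and 1069 in siZBTB7A. Both siZBTB7A tables, at 182 and 189 CPM, were below both siNTC tables, at 209 and 197 CPM. The fold was 0.915 (0.863 to 0.971), a small difference in the most deeply counted of the 10 genes. NOTCH1 (ENSG00000148400), the receptor best known from T cell leukaemia, was counted with 19 and 30 reads in siNTC and 17 and 24 in siZBTB7A. Its tables overlapped, and its fold of 0.886 had an interval of 0.570 to 1.37, so a difference of that size in either direction was not detectable at this depth. Leaving out a table moved its fold between 0.733 and 1.12.

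**Figure D1:**
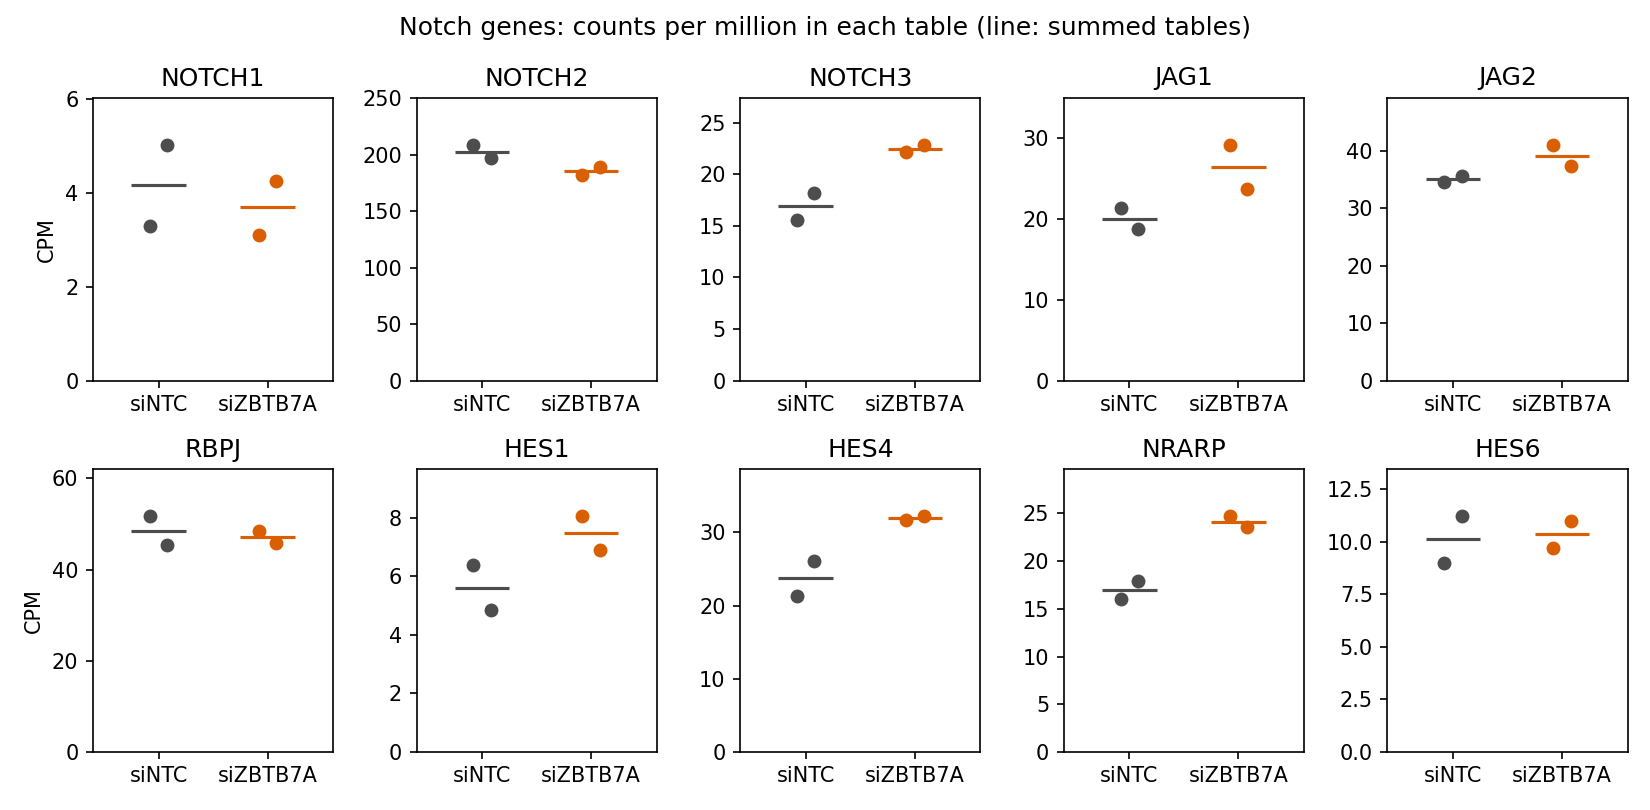
CPM (vertical axes, each starting at 0) of the 10 genes in the 2 siNTC tables (grey) and the 2 siZBTB7A tables (orange), with a line at the value of the summed tables. The siZBTB7A tables lie above both siNTC tables in NOTCH3, JAG1, JAG2, HES1, HES4 and NRARP, and below them in NOTCH2. The tables of the groups overlap in NOTCH1, RBPJ and HES6.

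The Jagged ligands were both present. JAG2 lay between 5.92 and 7.02 RPKM and JAG1 between 3.15 and 4.90, with the longest transcript as the length. With the median transcript length this order turned, JAG1 having a mean of 30.7 and JAG2 of 16.3 over the 4 tables, so which ligand was the more abundant depends on the transcript that is assumed. Of the Delta ligands, DLL3, known from neuroendocrine tumours, had 211 reads in all, DLL1 81 and DLL4 27. DLL4, best known from endothelium, was under the filter on low counts.

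JAG1 (ENSG00000101384) had 123 and 112 reads under siNTC and 159 and 134 under siZBTB7A. In CPM these were 21.3 and 18.7 against 29.1 and 23.7, and the fold was 1.32 (1.11 to 1.57). The groups did not overlap, but without the first siZBTB7A table the fold was 1.19. JAG2 (ENSG00000184916) had 200 and 213 reads in siNTC and 224 and 211 in siZBTB7A. Its siZBTB7A tables, at 41.0 and 37.3 CPM, lay just above the siNTC tables, at 34.6 and 35.6 CPM, and the interval of its fold of 1.11 included 1 (0.972 to 1.28).

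RBPJ (ENSG00000168214), the DNA-binding partner of all Notch receptors, was nearly equal in the groups. It had 299 and 271 reads in siNTC and 265 and 259 in siZBTB7A, a fold of 0.973 (0.862 to 1.1). The tables overlapped, at 51.7 and 45.3 CPM against 48.5 and 45.8 CPM. Its level was 7.56 to 8.63 RPKM. RBPJ has 4 annotated pseudogenes named after it, so its uniquely mapped reads are uncertain too.

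Among the targets, HES4 had the highest level. It lay between 20.4 and 31.0 RPKM, HES6 between 5.62 and 7.0 and HES1 between 3.07 and 5.10. The same order of these 3 HES genes was found with the median transcript length and with the union of exons. Reads of NRARP, an inhibitor encoded in a short transcript, gave 9.08 to 13.9 RPKM. The remaining HES and HEY genes were barely counted. HES2, HES7 and HEY1 had 40, 38 and 32 reads in all, and HES5 had 1. HES3, HEY2 and HEYL had 0 reads in the 4 tables, which allows up to 3 reads or 0.131 CPM. All 7 were under the filter on low counts, while all 10 of the genes examined here passed it.

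HES4 (ENSG00000188290) had 123 and 156 reads under siNTC and 173 and 182 under siZBTB7A. The values were 21.3 and 26.1 CPM against 31.6 and 32.2 CPM, both siZBTB7A tables lying above both siNTC tables. The fold was 1.35 (1.15 to 1.58). NRARP (ENSG00000198435) showed the largest fold of the 10 genes, 1.42 (1.18 to 1.71). Its reads numbered 93 and 107 in siNTC and 135 and 133 in siZBTB7A, or 16.1 and 17.9 CPM against 24.7 and 23.5 CPM, again without overlap. HES1 (ENSG00000114315), the archetypal Notch target, had fewer reads, 37 and 29 in siNTC and 44 and 39 in siZBTB7A. Its siZBTB7A tables, at 8.05 and 6.90 CPM, also lay above its siNTC tables, at 6.40 and 4.85 CPM. Its fold of 1.33 was close to that of HES4 but its interval was wide and included 1 (0.952 to 1.87). HES6 (ENSG00000144485) had 52 and 67 reads in siNTC and 53 and 62 in siZBTB7A, a fold of 1.02 (0.784 to 1.33) with overlapping tables.

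By level per length the 10 genes ran from HES4 at a mean of 26.7 RPKM over the 4 tables, through NOTCH2 at 17.1, NRARP at 11.6 and RBPJ at 7.98, to NOTCH1 at 0.421. Between them came HES6 and JAG2, at 6.38 and 6.36, whose ranges overlapped, then HES1 and JAG1, at 4.15 and 3.90, whose ranges also overlapped, and NOTCH3 at 2.27. The ranges of all other neighbours in this order did not overlap. The order depended on the length used, since 5 of the 10 genes kept their place with the union of exons and 1 with the median transcript length.

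**Figure D2:**
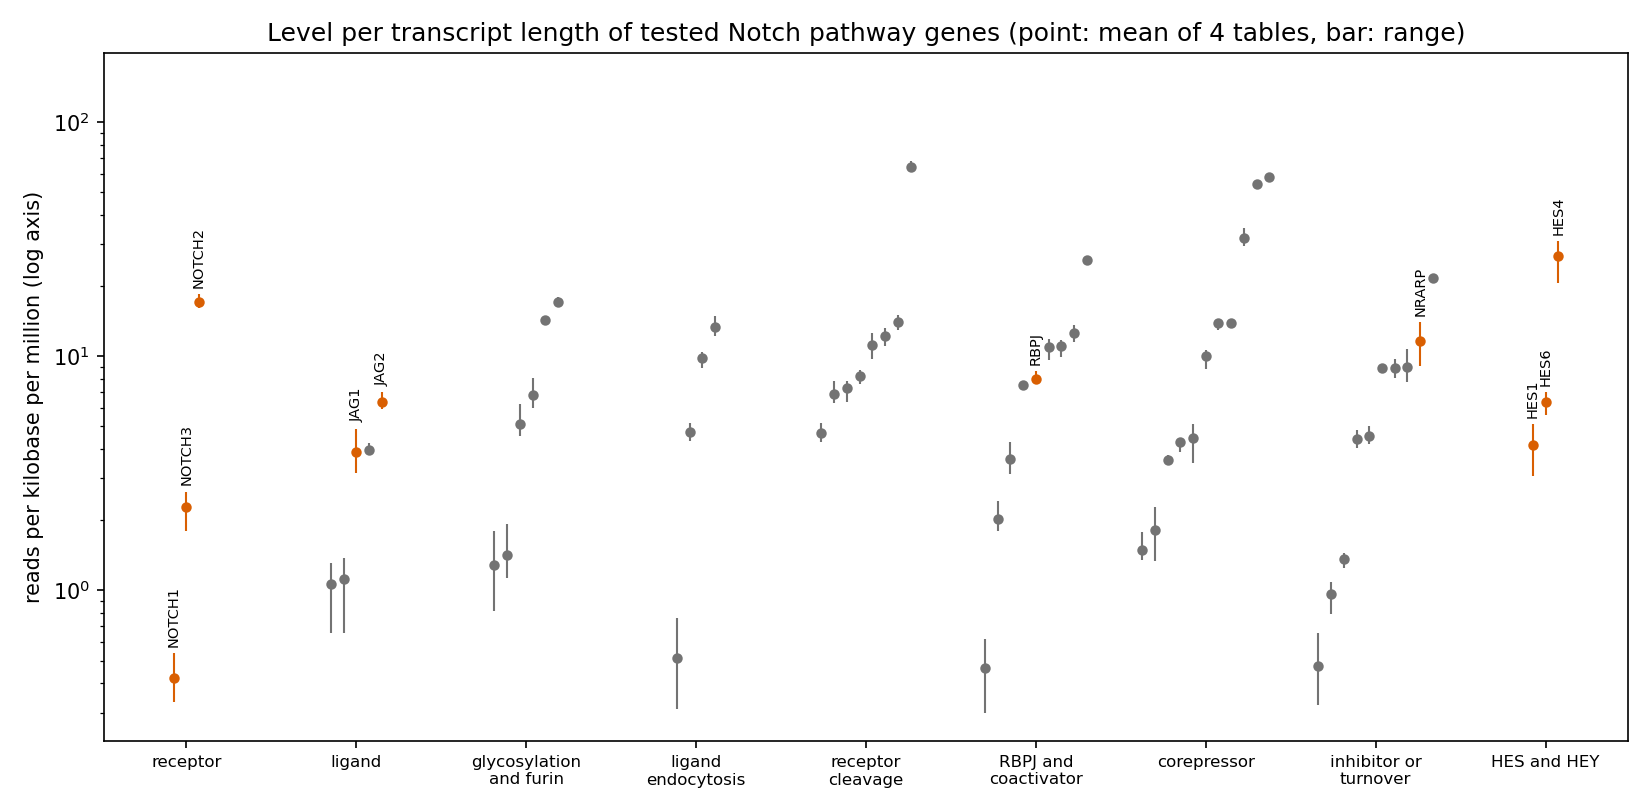
Level of each tested Notch pathway gene in reads per kilobase of the longest annotated transcript, scaled as CPM (log axis), by role; points are means of the 4 tables, bars the range over them, and orange marks the 10 genes. NOTCH2 at 17.1 stands above the other receptors, and HES4 at 26.7 above HES6 and HES1.

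Of the 10 genes, 5 had a fold of at least 1.2 in the siZBTB7A library, NOTCH3, JAG1, HES1, HES4 and NRARP, and 0 had a fold of 1/1.2 or less. Of the 12848 genes that passed the filter on low counts, 10.4% had a fold of at least 1.2 and 9.87% a fold of 1/1.2 or less. In the edgeR quasi-likelihood fit described below, JAG1, HES4 and NRARP were among the genes called higher and none of the 10 among those called lower, beside 2.25% and 2.72% of all tested genes, and DESeq2 called 0 of them. After the GC and length correction described below, without the first siNTC table and without the first siZBTB7A table, edgeR also called 0 of the 10; without the second siNTC table it called HES4 and NRARP, and without the second siZBTB7A table JAG1. The correction without its variance floor, which is described with the processing, called JAG1 and NOTCH3. Unstranded counts gave calls for JAG1, HES4, NRARP and NOTCH3. Since these genes were picked with their folds known, nothing is read from these counts. The share past 1.2 also depended on depth, being 22.4% among tested genes with 50 to 200 summed reads, as HES1 had, and 8.44% among those with 200 to 1000, as the other 4 had. The median fold of the 10 genes was 1.22, beside 1.0 over all tested genes. Both siZBTB7A tables were above both siNTC tables in 6 of the 10 and below them in 1, where the shares over all tested genes were 23.5% and 23.4%.

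Transcript composition moved with the fold between the libraries across all tested genes. The median fold was 0.965 among 2135 tested genes whose longest transcript had under 40% GC, 1.05 among 1366 with 60 to 65%, 1.08 among 413 with 65 to 70% and 1.24 among 38 with 70% or more. In that last bin 52.6% of the genes had a fold of at least 1.2. HES4 belongs to it, with 73.9% GC in a transcript of 1040 bases, a GC content above that of 99.95% of tested genes. NRARP had 67.3% GC and 1770 bases, and HES6, whose fold was 1.02, had 68.4% and 1600 bases. These 3 genes are among 161 with at least 65% GC and under 2000 bases, whose median fold was 1.03 and of which 21.7% reached 1.2. NOTCH3, JAG2 and NOTCH1 had 63.1%, 64.0% and 62.9% GC and folds of 1.33, 1.11 and 0.886, whose counting intervals overlapped. JAG1 and HES1, with 49.6% and 49.9%, lay in a bin of 45 to 50% with a median fold of 0.995, as did NOTCH2 with 49.4%. RBPJ had 38.0%.

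**Figure D3:**
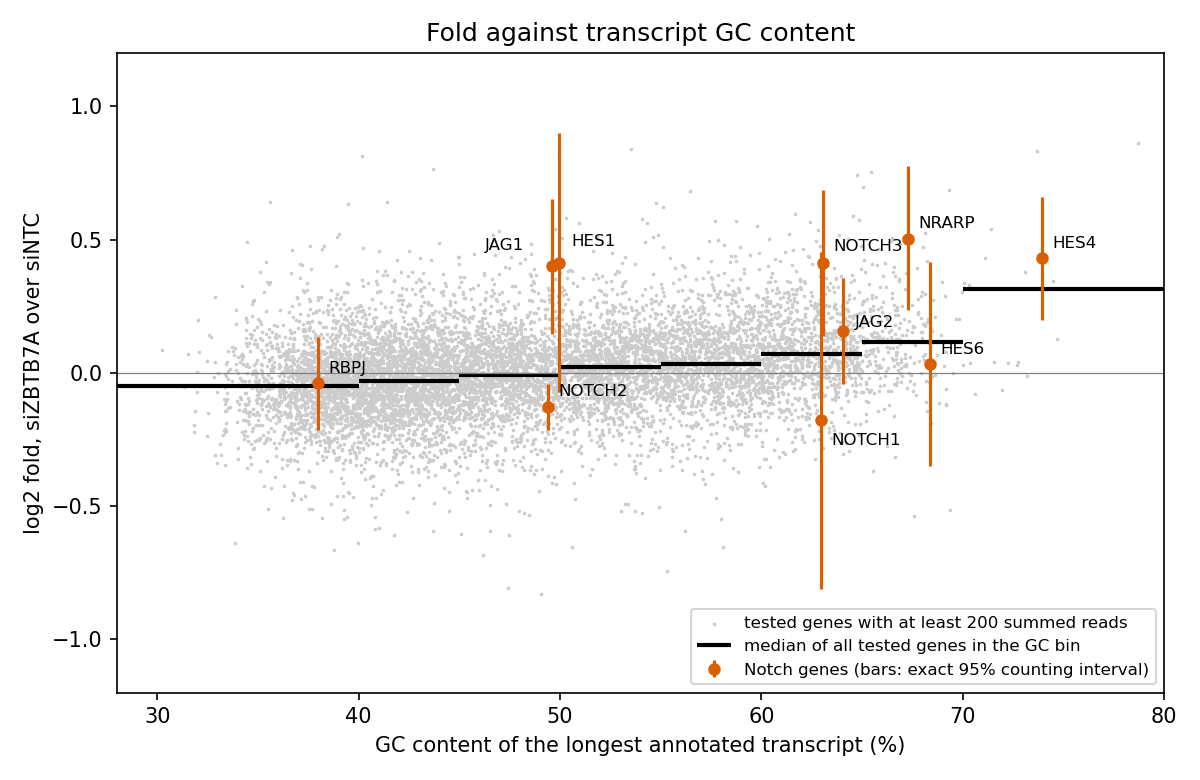
Log2 fold of siZBTB7A over siNTC (vertical axis) against the GC content of the longest annotated transcript, for tested genes with at least 200 summed reads (grey) and the 10 Notch genes (orange, with exact 95% counting intervals); black lines are medians of all tested genes per GC bin. HES4 sits near the median of its bin, at a fold of 1.35 against 1.24, while JAG1, HES1, NOTCH3 and NRARP sit above theirs.

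A curve of the fold on GC content and length over all tested genes gave 1.22 at the values of HES4, 1.12 at those of NRARP, 1.13 at those of HES6 and 1.03 at those of HES1. The curve adds a term for GC content to a term for length. For HES4, NRARP and HES6 it lay above 1.03, the median fold of the 161 genes with at least 65% GC and under 2000 bases. HES4, with a GC content above that of 99.95% of tested genes, lay at the edge of the curve. Divided by the curve, the fold of HES4 was 1.1 (0.938 to 1.29), below its uncorrected interval, and that of NRARP was 1.27 (1.05 to 1.53). The folds of JAG1, NOTCH3 and HES1 hardly moved, to 1.33 (1.11 to 1.58), 1.31 (1.09 to 1.59) and 1.29 (0.926 to 1.82). NOTCH2 came nearer to 1, at 0.957 (0.902 to 1.02), and HES6 went to 0.903 (0.693 to 1.18). With this correction 4 of the 10 genes had a fold of at least 1.2, HES4 no longer being among them, and the median of the 10 was 1.08. These values depend on a variance floor in the curve, which is described with the processing. Without that floor the corrected folds of JAG1, NOTCH3, HES1 and NRARP were 1.36, 1.40, 1.22 and 1.21. Whether GC content, length, the mitochondrial share or the reads outside exons play a part in the folds of these genes was not tested further.

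**Figure D4:**
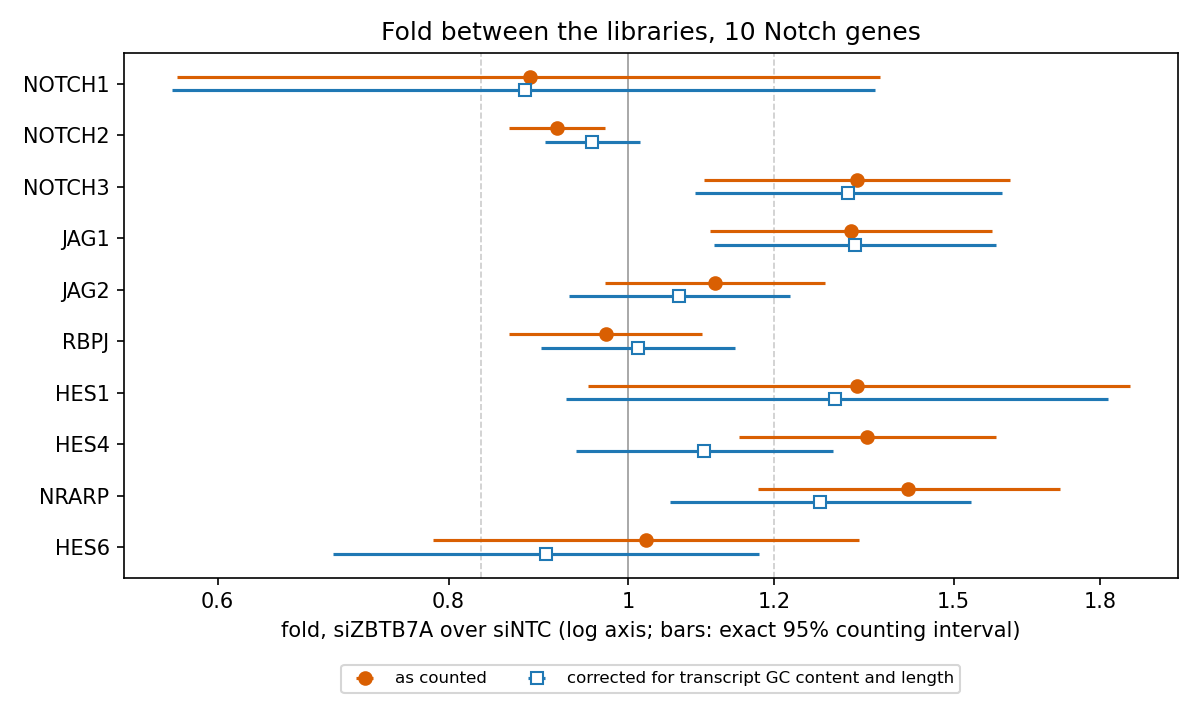
Fold of siZBTB7A over siNTC for the 10 genes (log axis) as counted (orange circles) and divided by the curve on transcript GC content and length (blue squares), with exact 95% counting intervals; dashed lines mark folds of 1/1.2 and 1.2. The correction moves HES4 from 1.35 to 1.1 and NRARP from 1.42 to 1.27, and leaves JAG1 and NOTCH3 near 1.3.

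The rest of the pathway was read from a list of 63 further genes, grouped by role and not picked for how they moved. Of these, 49 passed the filter on low counts. In the edgeR quasi-likelihood test across all genes, with a Benjamini-Hochberg adjusted p under 0.05, 0 of the 49 were higher and 1 was lower in the siZBTB7A library, beside 2.25% higher and 2.72% lower of all tested genes. At an unadjusted p under 0.05 there were 4 higher and 5 lower. The share of all tested genes at that unadjusted p was not computed, so nothing is read from these counts. DESeq2 called 0 of the 49, beside 89 of all 12848 tested genes. The edgeR test compares 2 libraries and not 2 conditions. The median fold of the 49 genes was 1.01, with 25 folds above 1 and 24 below. Of them 5 (10.2%) reached 1.2, beside 10.4% of all tested genes.

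The lower gene was MIB1, which encodes the ubiquitin ligase that drives endocytosis of Notch ligands in the sending cell. It had 773 and 851 reads under siNTC and 639 and 667 under siZBTB7A, a fold of 0.851 (0.791 to 0.916), without overlap. MIB1 has a long transcript of 37.7% GC, and after correction for GC content and length the fold was 0.912 and the call was lost. The call was also lost without the second siNTC table. NEURL1, another ligase for Notch ligands, had 8 and 8 reads in siNTC and 18 and 16 in siZBTB7A, a fold of 2.25 (1.21 to 4.36) that did not pass the test.

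Of the genes that modify the receptor 6 were tested, with a median fold of 1.1, 5 folds above 1 and 1 below, and none passed the test. EOGT, a glycosyltransferase gene acting on the extracellular repeats of Notch, had 49 and 39 reads in siNTC and 21 and 30 in siZBTB7A, a fold of 0.613 (0.426 to 0.876) that was the 1 below. LFNG, the Lunatic fringe gene, had a fold of 1.38 (0.856 to 2.24) from 76 reads. POFUT1, which adds the fucose that fringe proteins extend and was the most abundant of this group per longest transcript, had a fold of 1.01 (0.921 to 1.1).

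Receptor cleavage genes clustered close to 1. All 8 were tested, their median fold was 0.931, and 0 lay beyond 1.2-fold in either direction. The gamma-secretase subunit gene APH1A, which had the highest level of the whole list per longest transcript (64.4 RPKM) but not with the median transcript length, had a fold of 0.933 (0.872 to 0.998). None of the 8 passed the test.

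Nuclear cofactors were also near 1 as a group. The 8 coactivator genes beside RBPJ had a median fold of 1.06, and the acetyltransferase gene KAT2B stood apart with 1.25 (1.03 to 1.54) from 92 and 91 reads in siNTC and 113 and 104 in siZBTB7A. SNW1, the most abundant of them per longest transcript but not by reads or with the median transcript length, had 1.01 (0.900 to 1.12). Of the corepressor genes 11 were tested, with a median of 0.983. Among these TLE1, a Groucho family gene, had 1.26 (0.913 to 1.75) with overlapping tables, and CTBP1, the most abundant per longest transcript, had 0.991 (0.941 to 1.04). The 9 tested inhibitor and turnover genes other than NRARP had a median of 0.968. None reached 1.2, beside 10.4% of all tested genes. ITCH, the most abundant per longest transcript, stood at 0.991 (0.924 to 1.06). None of the genes named here passed the test.

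**Figure D5:**
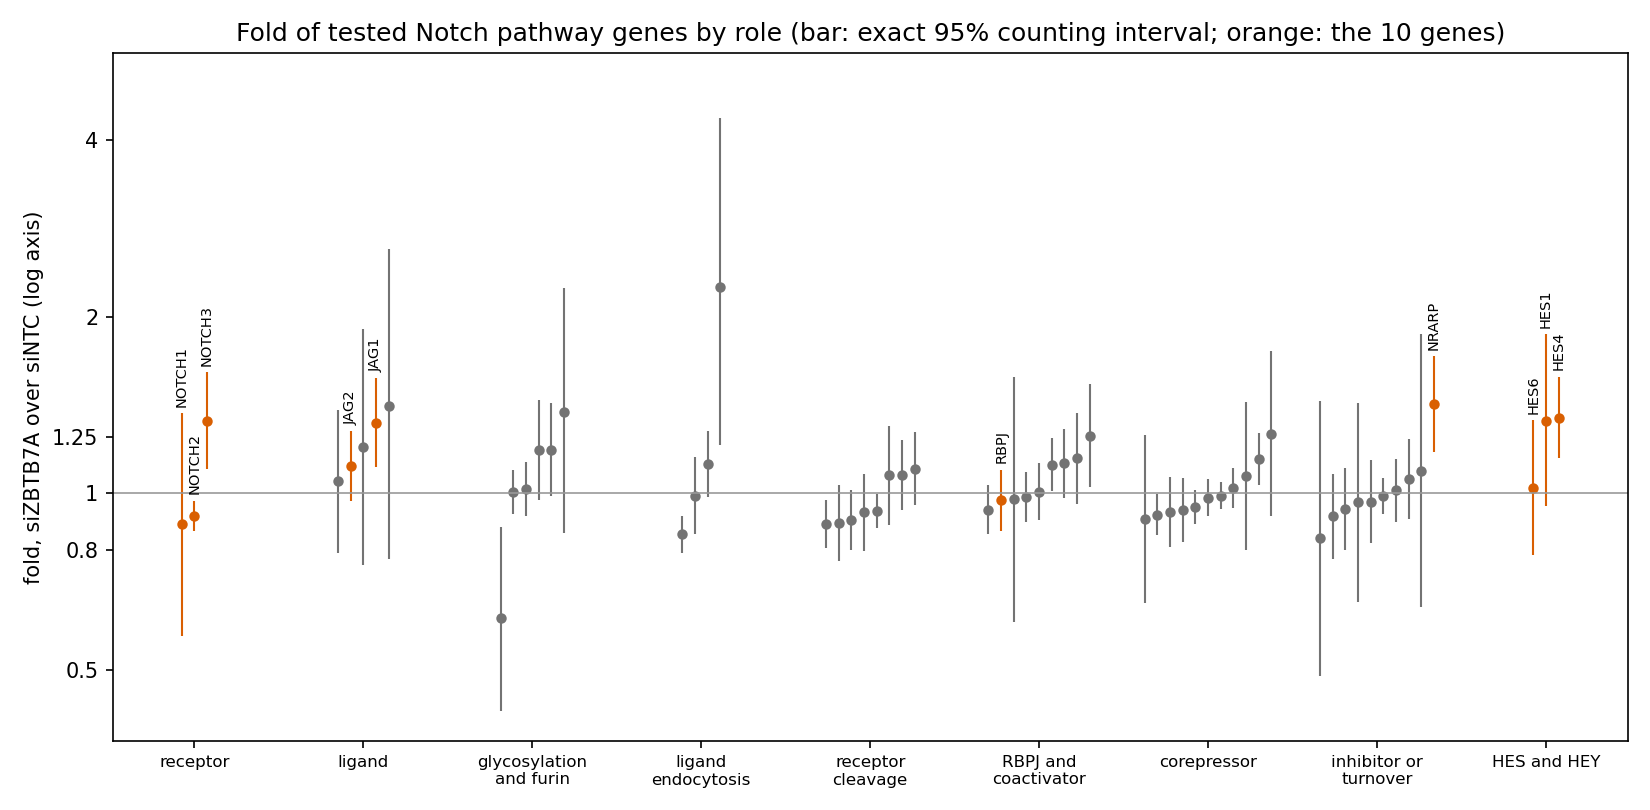
Fold of siZBTB7A over siNTC (log axis) of the 59 tested Notch pathway genes by role, with exact 95% counting intervals; orange marks the 10 genes and grey the 49 others. Most grey points lie near 1, with EOGT at 0.613 and NEURL1 at 2.25 as the extremes.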

How the data were processed

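RNA-seq was done on VCaP cells with 2 tables per group. The deposited files hold whole-number read counts per gene, not normalized, in the layout of STAR gene counts. Per the submitters' processing notes the tool was STAR 2.4.2a and the build hg19 (GRCh37). Which annotation the authors counted against is not stated in those notes. The count on the main strand, in the fourth column, exceeded that on the other by 24.9 to 25.5 times and was used. The 4 rows that name no gene (50.8% to 51.2% of reads) were left out of totals and tests. Gene symbols, transcript lengths and GC content came from GENCODE 29, by Ensembl number, which named 55698 of 60308 identifiers. Promoter windows came from RefSeq on GRCh38.p14, another build than that of the counts.

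The fit across all genes was edgeR 4.0.16 in R 4.3.3 (robust quasi-likelihood test, TMM, filterByExpr, group as the only term). Folds came from the summed tables and TMM-adjusted totals. The curve on GC content and length was a natural spline with 5 degrees of freedom each, and 99.5% of tested genes had both values. Each gene was weighted by the inverse of the sum of its counting variance and a floor (SD 0.1 in natural log). That floor was a choice made with the values in view. The fit was tested on simulated data. The labels do not say whether the tables come from separate cultures. Genes named outside the 10 were those with at least 50 summed reads and a fold past 1.2 or a call (at most 12), and the most abundant of each role per longest transcript; listed genes without reads or under the filter could be named as such. DLL1 and DLL3, and in the closing section RITA1 and MAML1, fall outside that rule and were named after their values were seen. The 10 genes, the pathway list and the marker lists were chosen with earlier results of these data known. Of 25 markers 1 was not matched. Alternatives, including DESeq2 1.42.0, are described with their effect in the closing section. Other computations used Python 3.11.15, scipy 1.17.1 and pandas 2.3.3.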

Additional observations from a re-analysis of the deposited data

Results flagged for a closer look

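Reads on the strand opposite to a gene, which the comparisons above do not use, were above the control at 2 of the 10 genes, with counting intervals above 1. At NRARP there were 8 and 4 such reads under siNTC and 15 and 14 under siZBTB7A, a fold of 2.56 (1.27 to 5.50). They equalled 6.0% and 10.8% of the reads on the gene's own strand in the 2 libraries, where the figure over all genes was 4.02% and 3.92%. No annotated gene of GENCODE 29 overlaps NRARP. At JAG1 there were 1 and 0 reads in siNTC and 1 and 7 in siZBTB7A, a fold of 8.47 (1.14 to 376) that rests on the second siZBTB7A table. The antisense gene AL050403.2, annotated on the strand opposite to JAG1, had 0 reads in all 4 tables. Both were picked from 10 genes after their values were seen, and neither has a replicate check. The share of all tested genes with an opposite-strand interval above 1 was not computed, so nothing is read from the count of 2.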

How the results depend on the processing

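The count of 639 genes called (289 higher, 350 lower) was 89 with DESeq2, 353 with the GC and length correction and 303 to 373 without 1 table, and stayed within 1.5 times with DESeq2 size factors, other filters, unstranded counts, protein-coding genes only and the replicate block (654). With the replicate block the called pathway genes were the same, MIB1 and, of the 10, JAG1, HES4 and NRARP. The correlation between tables with the same number, after removing group means, was -0.014 (6972 genes). Tables of a group differed only by read sampling, so this value cannot tell whether the shared number marks a pairing. The 1 called pathway gene outside the 10 became 2 with unstranded counts (MIB1 and RITA1), 0 with the GC and length correction, 0 with DESeq2 and 0 to 2 without 1 table. Without the variance floor, an alternative added after the data were seen, the correction called 766 genes and MAML1 as the pathway gene outside the 10, and HES4 turned to a log2 fold of -0.0035. The 5 genes past a fold of 1.2, all higher, became 4 to 6 without 1 table, the 6 including NOTCH1 as lower, and 4 with either correction. Past 1.1 there were 7 (6 higher and NOTCH1 lower) and past 1.3 there were 5. In the level order, 1 gene kept its place with the median transcript length and 5 with the union of exons. Of 120 values of the 10 genes under 12 alternatives, 117 stayed inside the counting interval, the others being HES4 under both corrections and NOTCH2 at 0.996 without the floor. The alternatives reuse the same reads, so this count is no independent check. Inside their intervals the folds of NOTCH1 (0.733 to 1.12), HES6 (0.853 to 1.15) and RBPJ (0.912 to 1.04) fell on both sides of 1. The cause of these shifts was not tested, except that leaving out a table leaves fewer reads.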
